A study of Mus musculus with 33 samples.

Results

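Ifit1 and Ifit3 are neighbouring mouse genes for interferon-induced proteins with tetratricopeptide repeats, and their RNA was followed here in cultured spleen cells given CpG DNA. The members were the probes whose gene symbol in the platform annotation is Ifit1 or Ifit3. Each gene had 1 such probe, so 2 of 16720 probes, and 2 of the 9672 genes with values, are described. Spleen cells of female BALB/c mice aged 2 months were cultured with CpG ODN, an equimolar mixture of oligodeoxynucleotides 1555 and 1466 at 1 uM. The second group received control ODN, an equimolar mixture of oligodeoxynucleotides 1612 and 1471 at 1 uM, which lack the CpG motif, and the third was cultured in medium alone. RNA was taken after 2, 4 or 8 h from whole spleen cell cultures, in which no cell type had been separated. Each treatment had 4 arrays at 2 h, 4 at 4 h and 3 at 8 h, numbered as repeats, which makes 9 groups and 33 arrays. Whether a repeat was a separate mouse is not stated, so the p-values below measure the spread between these arrays.

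IFIT proteins are made by most cells after they sense interferon or viral nucleic acid. IFIT1 binds RNA whose 5′ cap lacks the methyl group that host messenger RNA carries on its first nucleotide, and keeps such RNA from being translated. In humans, IFIT3 binds IFIT1 and raises its hold on RNA. Both genes are switched on by ISGF3, a transcription factor complex that forms after type I interferon binds its receptor and that recognises the interferon-stimulated response element (ISRE). Unmethylated CpG DNA is sensed in endosomes by the receptor TLR9, which signals through MYD88 and in mice is found in B cells and dendritic cells, among other cells. Plasmacytoid dendritic cells are known for making large amounts of type I interferon on this signal. The comparison with control ODN sets DNA with the CpG motif against DNA without it. Other differences between the oligonucleotides were not examined, since their sequences were not used here. The comparison with medium covers the response to added DNA as a whole.

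Every array carried spleen cell RNA labelled with Cy5 and, labelled with Cy3, Universal Mouse Reference RNA, which is a pool of RNA from several mouse sources. Levels are given as centred log2 ratios of spleen cells over this reference, with each array's median over all measured probes set to 0. A level of 0 is thus a ratio equal to that of the array's median probe, and each step of 1 doubles the ratio. No source used here states the log base, and 2 was inferred from values that run from -6.51 to 8.54. Arrays held values for 7908 to 11129 probes, array medians lay between -0.085 and 0.024 before centring, and the number of arrays limits the precision. Differences between groups are given with a standard error from limma, and a gene is said to have risen or fallen where the adjusted p over all genes tested in that comparison was below 0.05. The identity of the cultures was checked with marker genes. Averaged over 7 B cell markers the level was 2.07 over all arrays, and over 8 T cell markers it was 2.12. The level was 3.06 for 6 neutrophil, 2.68 for 3 erythroid and 2.06 for 5 NK cell markers. Lower levels were those of 7 monocyte and macrophage (0.92), 4 dendritic cell (0.70) and 5 platelet markers (-0.29). For 5 genes typical of tissues other than spleen the level was -0.57.

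Both genes lie on chromosome 19 of the mouse assembly GRCm38.p6 and are read from the plus strand. Ifit3 (Entrez gene 15959) spans chr19:34583119-34588982 and Ifit1 (Entrez gene 15957) spans chr19:34640889-34650009. No source used here says where on the transcripts the probes lie. The genes are shown with the 250 bases before their start in the RefSeq promoter table, because the response element of interferon signalling is known to lie in this stretch. The table's start of Ifit3 lies after the first base of the gene's span, so the Ifit3 window falls within that span, while the Ifit1 window ends just before its gene. Capitals mark the ISRE core, searched as GAAA, any 2 bases and GAAA, which on the opposite strand reads TTTC, any 2 bases and TTTC.
Ifit1, chr19:34640639-34640888, plus strand: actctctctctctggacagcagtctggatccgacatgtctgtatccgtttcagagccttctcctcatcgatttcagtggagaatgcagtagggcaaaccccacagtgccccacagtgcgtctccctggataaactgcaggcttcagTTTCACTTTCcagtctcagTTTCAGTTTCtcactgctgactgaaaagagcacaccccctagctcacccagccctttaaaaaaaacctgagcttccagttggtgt
Ifit3, chr19:34583279-34583528, plus strand: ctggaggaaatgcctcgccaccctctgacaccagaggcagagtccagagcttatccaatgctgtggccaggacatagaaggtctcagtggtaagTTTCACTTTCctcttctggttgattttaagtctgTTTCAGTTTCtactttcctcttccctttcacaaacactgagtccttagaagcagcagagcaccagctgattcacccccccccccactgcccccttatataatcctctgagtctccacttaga

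Each window held 2 matches, and in both genes the match farther from the start reads TTTCACTTTC and the nearer one TTTCAGTTTC. In Ifit1 they lay 104 to 95 and 85 to 76 bases before the start, with 19 bases between their first bases. In Ifit3 they lay 156 to 147 and 122 to 113 bases before the start, 34 bases apart. At least 1 match was present in 978 of 32851 promoter windows of this length (2.98%), and at least 2 were present in 59 (0.180%). The window of Ifit3b, a close copy of Ifit3 without a value here, also held 2 matches 34 bases apart. The pair of Ifit1 sites also falls in a window of Ifit1bl2, a neighbouring family member read from the opposite strand. Neither of the 2 windows of Ifit2 held a match. The first window runs past the first base of the span of Ifit2 (chr19:34550550-34576534), and the second lies within that span. Bases farther before the gene were not searched. A match describes the letters of a window, and binding to it was not measured.

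Ifit1, the cap-sensing member, did not differ detectably from the controls after 2 h with CpG ODN, rose after 4 h and rose further after 8 h. At 2 h its levels with CpG ODN were -0.64, -0.53, -0.17 and -0.35. They were -0.50, -0.62 and -0.19 on the 3 measured control ODN arrays, replicate 4 having no value, and -0.75, -0.99, -0.24 and -0.76 in medium. The 3 groups overlapped. At 4 h the levels with CpG ODN were 1.40, 1.41, 1.13 and 1.07, against -0.28, -0.54, -0.34 and -0.67 with control ODN and -0.36, 0.09, -0.41 and -0.45 in medium. Every CpG ODN array lay above every array of both control groups. At 8 h the levels with CpG ODN were 4.15, 3.79 and 4.16, against -0.38, 0.08 and -0.88 with control ODN and 0.12, 0.05 and -0.26 in medium, again with no overlap. The plot of the IFIT probes by array shows these steps.

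**Figure D1:**
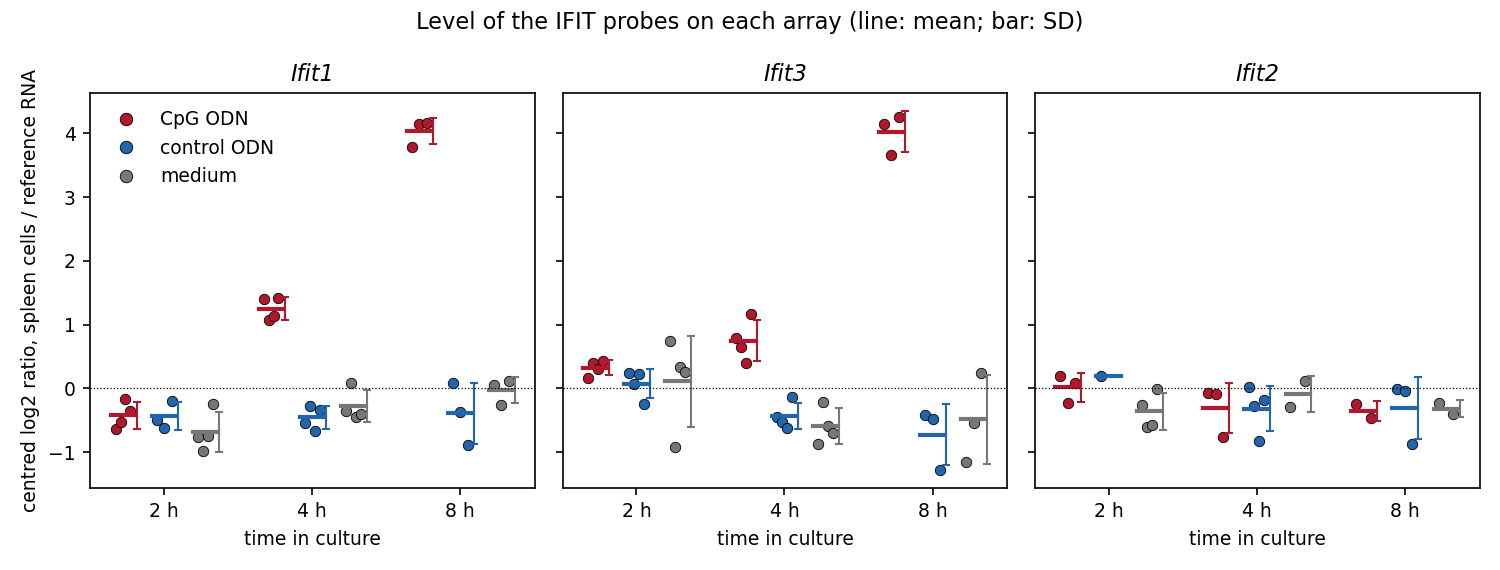
Level of the Ifit1, Ifit3 and Ifit2 probes on each array, as the centred log2 ratio of spleen cells over reference RNA (vertical axis), against time in culture (horizontal axis, 2, 4 and 8 h). Points are arrays, coloured by treatment, horizontal lines are group means and vertical bars are SDs. Ifit1 and Ifit3 with CpG ODN averaged 4.03 each at 8 h, while no Ifit2 value exceeded 0.19.

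CpG ODN minus control ODN for Ifit1 was 0.01 ± 0.21 (SE, log2) at 2 h, and limma gave an adjusted p of 1.00, in a comparison where 0.0430% of 9302 genes were called higher. The 95% interval of that difference, -0.42 to 0.45, leaves room for a small change in either direction. At 4 h Ifit1 rose by 1.71 ± 0.20, a 3.27-fold ratio with a 95% interval of 2.48 to 4.31 (limma adjusted p = 2.59e-06, n = 4 each). Of 9630 genes tested at 4 h, 0.384% were called higher, and Ifit1 stood 11th by size of the difference. At 8 h Ifit1 rose by 4.43 ± 0.23, which is 21.5-fold with an interval of 15.6 to 29.6 (limma adjusted p = 1.60e-14, n = 3 each). There 4.55% of 9494 genes were called higher, and Ifit1 stood 4th. Against medium, which shares the CpG ODN arrays with this comparison, the differences of Ifit1 were 0.26 ± 0.20 at 2 h, 1.53 ± 0.20 at 4 h and 4.06 ± 0.23 at 8 h. Those at 4 h and 8 h passed the test (limma adjusted p = 2.37e-05 and 1.55e-13). The genes called higher against medium were 0.0420%, 0.207% and 5.66% of those tested at 2, 4 and 8 h.

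Ifit3, the partner of IFIT1 in human cells, rose at 8 h against both controls, while at 4 h its call depended on the control and on the setting. At 2 h its levels with CpG ODN were 0.16, 0.40, 0.31 and 0.43. With control ODN they were 0.24, 0.08, -0.25 and 0.23, and in medium they ranged from -0.91 to 0.75, the widest spread of any group of Ifit3. At 4 h the levels with CpG ODN were 0.80, 1.16, 0.39 and 0.65, against -0.52, -0.44, -0.14 and -0.61 with control ODN and -0.86, -0.21, -0.70 and -0.58 in medium. The CpG ODN arrays lay above all arrays of both control groups at that time. At 8 h the levels with CpG ODN were 3.66, 4.15 and 4.26. They were -0.49, -0.42 and -1.28 with control ODN and 0.24, -1.15 and -0.54 in medium, so the groups did not overlap.

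The difference of Ifit3 between CpG ODN and control ODN was 0.25 ± 0.28 at 2 h (limma adjusted p = 1.00), with a 95% interval of -0.32 to 0.83. At 4 h it was 1.18 ± 0.28, a ratio of 2.27 with an interval of 1.52 to 3.37, which missed the threshold (limma adjusted p = 0.054). Under 3 of 11 other settings this 4 h difference passed, namely quantile normalization (1.22), array weights (1.09) and a test over genes measured on all arrays (1.18), with limma adjusted p-values of 0.029, 0.003 and 0.042. Against medium the 4 h difference was 1.34 ± 0.28 and passed the test (limma adjusted p = 0.024). That call was lost without CpG ODN 4 h replicate 1, 2 or 4 or medium 4 h replicate 1, 3 or 4 (1.20 to 1.47, highest adjusted p = 0.137). It was also lost without the 4 arrays of far lower database experiment number (1.25, adjusted p = 0.222) and when the fit held the compared groups alone (1.34, adjusted p = 0.064). At 8 h Ifit3 rose by 4.75 ± 0.32 against control ODN, or 27.0-fold with an interval of 17.1 to 42.6 (limma adjusted p = 4.78e-12), and stood 2nd of 9494 genes. Against medium it rose by 4.51 ± 0.32 (limma adjusted p = 1.64e-11) and stood 3rd. The 8 h calls of both genes, against both controls, held under each alternative that was run.

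**Figure D2:**
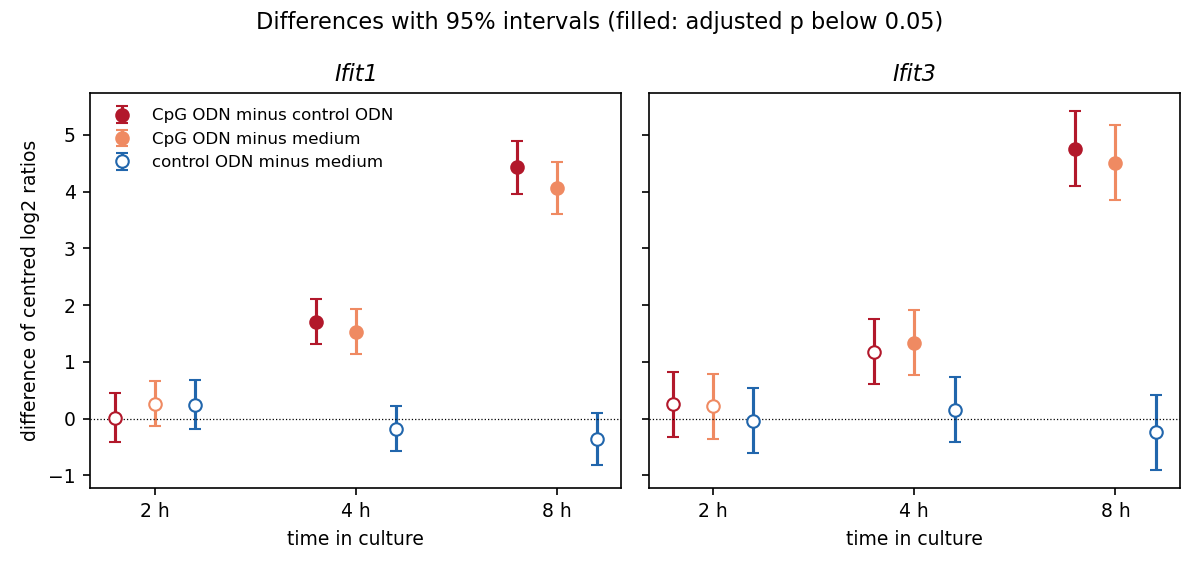
Differences of Ifit1 and Ifit3 between treatments (vertical axis, difference of centred log2 ratios) at 2, 4 and 8 h (horizontal axis). Points are limma estimates, bars are 95% intervals, and filled points passed an adjusted p of 0.05. The differences of CpG ODN from control ODN at 8 h were 4.43 for Ifit1 and 4.75 for Ifit3, and every difference of control ODN from medium was open.

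Control ODN, the DNA without the CpG motif, gave no call for either gene against medium. Control ODN minus medium was 0.25, -0.17 and -0.36 for Ifit1 and -0.04, 0.16 and -0.24 for Ifit3 at 2, 4 and 8 h. By limma 0 of 9239, 9637 and 9526 genes were called at these times, and 229, 176 and 379 had an unadjusted p below 0.05. The widest intervals, at 8 h, ran from -0.82 to 0.10 for Ifit1 and from -0.90 to 0.42 for Ifit3.

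The widening of the response between times was tested as a change in the difference between CpG ODN and control ODN. For Ifit1 that difference widened between 2 h and 4 h by 1.69 ± 0.29 (limma adjusted p = 0.020), where 1 of 9260 genes (0.0108%) was called. The call was lost with the repeat number across times as a block (1.66, adjusted p = 0.056) and in 7 of 16 fits that each left out 1 array (1.57 to 1.78, highest adjusted p = 0.176). At 2 h these were replicates 1 and 2 with CpG ODN and replicates 1 and 3 with control ODN, and at 4 h they were replicate 1 with CpG ODN and replicates 2 and 4 with control ODN. For Ifit3 the same change was 0.93 ± 0.40 and did not pass (limma adjusted p = 1.00). From 4 h to 8 h the difference grew by 2.72 ± 0.30 for Ifit1 and by 3.57 ± 0.43 for Ifit3, both called (limma adjusted p = 8.83e-07 and 3.68e-06), as were 1.25% of 9456 genes in that direction. Between 2 h and 8 h it grew by 4.41 ± 0.31 and 4.50 ± 0.43, both called, with 2.13% of the genes called in that direction. Within the CpG ODN cultures Ifit1 rose by 1.67 ± 0.20 between 2 h and 4 h (limma adjusted p = 6.63e-06), where 0.655% of the genes were called higher. For Ifit3 this step was 0.43 ± 0.28 and did not pass (limma adjusted p = 0.650). From 4 h to 8 h the rise within CpG ODN cultures was 2.78 ± 0.21 for Ifit1 and 3.27 ± 0.30 for Ifit3, both called (4.15% of the genes called higher).

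Ordered by mean, the Ifit1 level was highest with CpG ODN at 8 h (4.03 ± 0.21, SD, n = 3), then with CpG ODN at 4 h (1.25 ± 0.18, n = 4), and neither overlapped the next group. The other 7 groups of Ifit1, CpG ODN at 2 h among them, had means of -0.68 to -0.03, and each overlapped its neighbours in this order. For Ifit3 the CpG ODN group at 8 h (4.03 ± 0.32, n = 3) stood apart. The mean with CpG ODN at 4 h was 0.75 ± 0.32 (n = 4), and its arrays overlapped those with CpG ODN at 2 h (0.33 ± 0.12, n = 4). The remaining means of Ifit3 lay between -0.73 and 0.11, with neighbours overlapping.

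Without CpG DNA, 1 step over time was called among both genes. Ifit1 in medium rose by 0.65 ± 0.21 between 2 h and 8 h (limma adjusted p = 0.034), in a comparison where 9.26% of the genes were called higher. This call was lost without medium 2 h replicate 1, 2 or 4 or medium 8 h replicate 1 or 2 (0.55 to 0.80, highest adjusted p = 0.106), and with array weights the difference was 0.32. Ifit3 in medium differed by -0.60 ± 0.30 between 8 h and 2 h and by -0.70 ± 0.28 between 4 h and 2 h, neither called (limma adjusted p = 0.202 and 0.250), where 5.30% and 0.450% of the genes were called lower. Both passed without medium 2 h replicate 2, the array with the lowest 2 h level of Ifit3 (-0.94 and -1.04, adjusted p = 0.022 and 0.028), and the 8 h difference also passed without medium 8 h replicate 1 (-0.96, adjusted p = 0.033). In control ODN cultures Ifit3 differed by -0.80 ± 0.30 between 8 h and 2 h (limma adjusted p = 0.093, with 2.48% of the genes called lower) and Ifit1 by 0.04 ± 0.23.

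Whether the 2 genes responded equally was examined on each array as the ratio of Ifit1 minus that of Ifit3, which leaves out array scaling. Its value on 1 array does not compare the amounts of the transcripts, so only differences between groups are read. At 4 h it was 0.60, 0.25, 0.73 and 0.42 with CpG ODN, against 0.24, -0.09, -0.19 and -0.06 with control ODN and 0.50, 0.30, 0.29 and 0.13 in medium. The CpG ODN arrays lay above all control ODN arrays, by a narrow margin at the edge, and overlapped those in medium. The mean with CpG ODN was 0.50 ± 0.21 and with control ODN -0.03 ± 0.19 (SD, n = 4 each), a difference of 0.53 (exact two-sided permutation p = 0.029, the smallest that 4 against 4 arrays allow). Adjusted over the 6 comparisons made, that p is 0.171 and does not pass. At these group sizes none of the 6 could have passed after adjustment, whatever the values. The lack of a call therefore does not show that the 2 genes responded equally. The difference from medium at 4 h was 0.19 (exact permutation p = 0.200). At 8 h the mean was 0.01 ± 0.43 with CpG ODN, against 0.34 ± 0.20 with control ODN and 0.46 ± 0.67 in medium (SD, n = 3 each), and the exact permutation p-values were 0.300 and 0.500, where 3 against 3 arrays cannot go below 0.100. Ifit1 minus Ifit3 was higher at 8 h than at 2 h within each treatment, by 0.76 with CpG ODN, 0.79 with control ODN and 1.25 in medium. These time comparisons were added after the values had been seen, and the exact permutation p-values were 0.057, 0.100 and 0.114. These designs could not go below 0.057, 0.100 and 0.057, so none could pass, and the 8 h and 2 h arrays overlapped in medium and in neither ODN group.

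**Figure D3:**
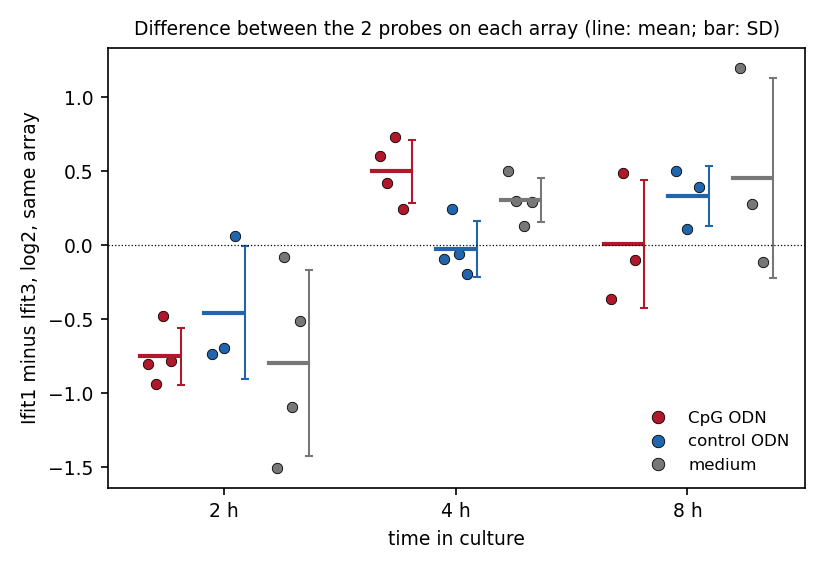
Ifit1 minus Ifit3 on the same array (vertical axis, log2) by time (horizontal axis) and treatment. Points are arrays, horizontal lines are group means and bars are SDs. The CpG ODN mean at 4 h was 0.50, against -0.03 with control ODN, and all 3 treatments were lower at 2 h, with means of -0.75, -0.46 and -0.79 for CpG ODN, control ODN and medium.

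Among the 21 control arrays with both values, no relation between Ifit1 and Ifit3 passed the test. Pearson's r was 0.04 (permutation p = 0.853) and Spearman's rho 0.12 (permutation p = 0.601), and without the 2 arrays farthest from the median of Ifit1 r was -0.31. Within times r was 0.21 over 7 arrays at 2 h, 0.48 over 8 at 4 h and 0.59 over 6 at 8 h (exact permutation p = 0.700, 0.256 and 0.206). Without the 2 arrays farthest from the median of Ifit1 at each time these became 0.60, 0.047 and 0.26, so all 3 values depend on those arrays. None of these 4 relations passed after adjustment, the lowest adjusted p for r being 0.513.

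The third family member with a probe, Ifit2, whose human product binds AU-rich RNA, was measured on 24 arrays and gave no call. Its levels at 8 h were -0.24 and -0.47 on 2 CpG ODN arrays, against -0.01, -0.05 and -0.87 with control ODN and -0.22 and -0.41 on 2 arrays in medium. CpG ODN minus control ODN was 0.01 ± 0.25 at 4 h and -0.05 ± 0.30 at 8 h (limma adjusted p = 1.00 and 0.964). Over all arrays Ifit2 stayed between -0.87 and 0.19. Ifit3b, Ifit1bl1 and Ifit1bl2, the other listed family members, were not tested here. How far RNA of Ifit3b, which is a close copy, hybridises to the Ifit3 probe was not tested, since probe sequences were not used here.

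Ifit2 lies before Ifit3, and Ifit3b, the pseudogene Cnn2-ps and Ifit1bl2 lie between Ifit3 and Ifit1. Of the 5 nearest tested genes on each side, 1 in all was called at 8 h against control ODN, where 4.55% of all genes rose and 5.45% fell. This was Fas, a death receptor of lymphocytes, with a rise of 1.02 ± 0.32 (limma adjusted p = 0.038). Its call was lost in 5 of 6 fits that left out 1 array, all but the one without CpG ODN replicate 2 (highest adjusted p = 0.242). Ch25h, an interferon-inducible cholesterol hydroxylase, differed by -0.44 ± 0.20 and Lipa, the lysosomal acid lipase, by -0.40 ± 0.27 at 8 h. Pank1, a pantothenate kinase and the nearest tested gene after Ifit1, differed by 0.46 ± 0.28, and these 3 did not pass.

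At 8 h the differences of both genes from control ODN were larger than those of 24 other antiviral interferon-stimulated genes with values. The chosen list held 35 genes, and the rest, Oas2, Ifi44 and Bst2 among them, had no value and were not ranked. Of these 24 genes, 18 rose with CpG ODN against control ODN and 0 fell, where 4.55% and 5.45% of all genes did, and 16 to 18 rose when each array was left out in turn. The median difference of the list was 2.10, against -0.12 over all genes tested. The highest were Cmpk2, a mitochondrial nucleotide kinase (3.89 ± 0.37), Zbp1, a sensor of Z-form nucleic acid (3.53 ± 0.21), and Ifih1, the RNA sensor MDA5 (3.15 ± 0.23). The 6 that were not called were Trim25, Herc6, Ifitm2, Oasl2, Oas3 and Mx1, with differences of -0.13 to 0.59. Rsad2, whose protein viperin makes an antiviral nucleotide, rose by 1.54 ± 0.50, a call that held only without control ODN replicate 1 when arrays were left out in turn. At 4 h 1 of 23 was called higher, where 0.384% of all genes were. This was Trim30a (1.24 ± 0.23), a regulator of TLR signalling, and the list's median was 0.34. At an unadjusted p below 0.05 by limma there were 8 of the 23, against 305 of all 9630 genes tested. Ifit1 at 1.71 exceeded all 23 at that time and Ifit3 at 1.18 all but Trim30a. At 2 h 0 of 24 were called by limma or at an unadjusted p below 0.05, and the median was -0.02, with 9 of the 24 above Ifit1 and 2 above Ifit3. Of 16 genes of the list that were tested at 8 h and have a promoter window, 6 held the ISRE core in at least 1 of theirs. Among all genes with a window, 936 of 27025 did.

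**Figure D4:**
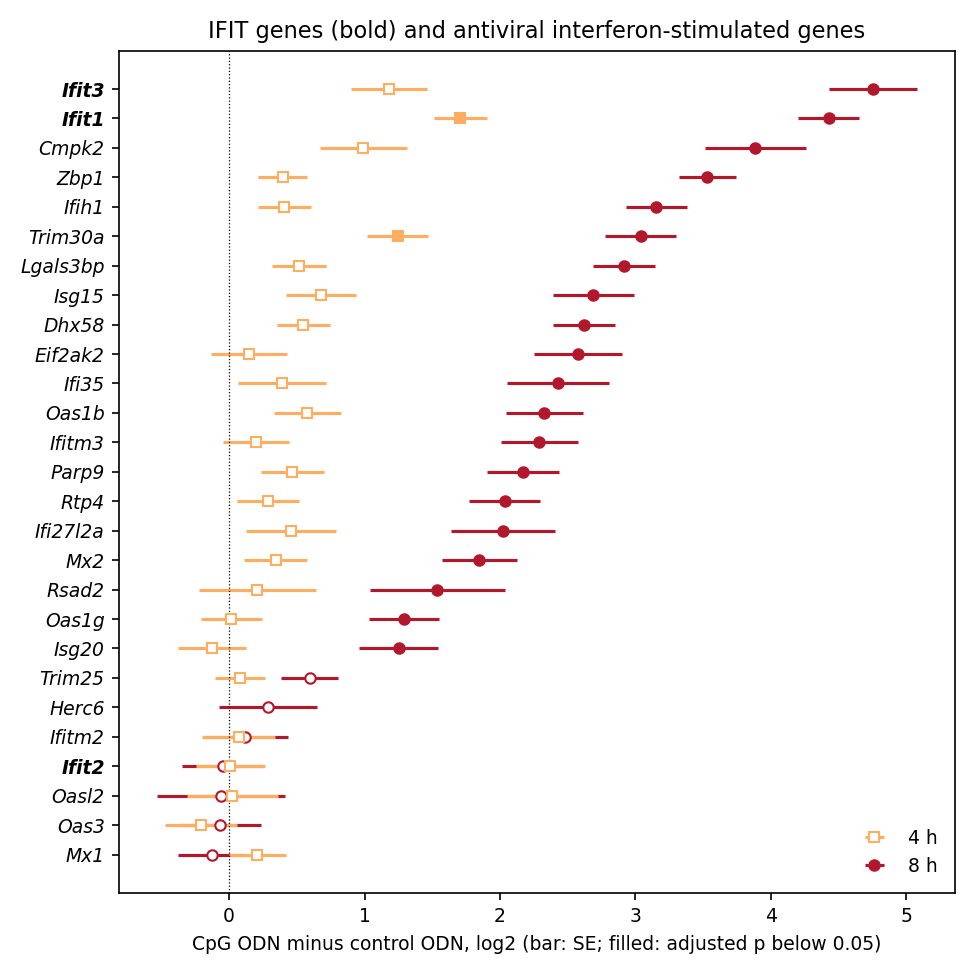
Difference between CpG ODN and control ODN (horizontal axis, log2) for the 3 IFIT genes with values, in bold, and 24 antiviral interferon-stimulated genes, at 4 h (squares) and 8 h (circles). Bars are standard errors and filled symbols passed an adjusted p of 0.05. Ifit3 (4.75) and Ifit1 (4.43) lie at the top at 8 h, Cmpk2 (3.89) follows, and Ifit2 (-0.05) and Mx1 (-0.13) are near 0.

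Along the pathway that leads to these genes, Ifng, the type II interferon, was the 1 of 5 interferon ligands with values that rose at 8 h against control ODN (1.08 ± 0.32, limma adjusted p = 0.027). Of all genes tested there, 4.55% rose. At an unadjusted p below 0.05 there were 3 such ligands, and the median of the 5 was 0.54, against -0.12 over all genes tested. Leaving out CpG ODN replicate 2 or 3, or control ODN replicate 1 or 2, removed the Ifng call (highest adjusted p = 0.149). The type I genes did not pass against control ODN, with 0.54 ± 0.24 for Ifnb1, 0.73 ± 0.27 for Ifna4, -0.01 ± 0.22 for Ifna6 and 0.03 ± 0.27 for Ifna11. Against medium 2 of the 5 rose at 8 h, Ifng by 1.17 ± 0.32 and Ifna4, an interferon alpha, by 1.13 ± 0.27 (limma adjusted p = 0.014 and 0.004), where 5.66% of all genes did. The Ifna4 call was lost without medium replicate 2 (adjusted p = 0.051), and that of Ifng without this array or without either of CpG ODN replicates 2 and 3, where the adjusted p reached 0.099. Interferon alpha genes are close copies of each other, and how far RNA of one reaches the probe of another was not tested. Ifnb1 levels at 8 h ranged from -0.02 to 0.35 with CpG ODN, against -0.83 to -0.09 with control ODN and -0.50 to -0.18 on 2 arrays in medium. Most interferon alpha genes have no value, and 14 of the 19 listed ligands were not tested here.

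Of 8 receptor and JAK-STAT genes tested at 8 h, 1 rose and 1 fell against control ODN, where 4.55% and 5.45% of all genes did. Stat2, a subunit of ISGF3, rose by 2.33 ± 0.27 (limma adjusted p = 2.83e-07). Ifnar1, a chain of the type I interferon receptor, fell by 0.67 on the log2 scale (SE 0.18, limma adjusted p = 0.014). The Ifnar1 call was lost with quantile normalization, and without CpG ODN replicate 2 or 3 or replicate 2 of control ODN (highest adjusted p = 0.066). Irf9, the DNA-binding subunit of ISGF3, differed by -0.24 ± 0.40 and was not called. Among 5 interferon regulatory factors 3 rose, where 4.55% of all genes did. Irf1, Irf4 and Irf8 rose by 1.72 ± 0.29, 1.36 ± 0.31 and 1.27 ± 0.35, while Irf2 and Irf3 were not called. Leaving out CpG ODN replicate 2 or 3, or control ODN replicate 3, removed the Irf8 call (highest adjusted p = 0.068). Irf7, which drives interferon alpha genes downstream of TLR9, has no value.

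Among 8 brakes on interferon signalling tested at 8 h, 3 rose against control ODN and 0 fell, where 4.55% and 5.45% of all genes did. Socs1, which inhibits JAK kinases, rose by 3.79 ± 0.31 at 8 h (limma adjusted p = 4.25e-10) and by 1.37 ± 0.27 at 4 h (limma adjusted p = 0.009). The 4 h call was lost without CpG ODN 4 h replicate 3 (adjusted p = 0.054). Ptpn1, a phosphatase of JAK2 and TYK2, rose by 1.13 ± 0.26. Socs3, another inhibitor of cytokine receptors, rose by 0.70 ± 0.23, a call that held without CpG ODN replicate 1 and was lost without any other of the 6 arrays (highest adjusted p = 0.259). Usp18, which blocks signalling at the type I receptor, is named because it is interferon-inducible and was chosen after its value was seen, and it differed by 0.06 ± 0.28. Of 6 genes of the TLR9 pathway 1 rose and 0 fell, beside the same 4.55% and 5.45% of all genes. Myd88, the adaptor, rose by 1.41 ± 0.25 (limma adjusted p = 2.02e-04). Tlr9 itself, also singled out after its value was seen, differed by 1.24 ± 0.47 and was not called (limma adjusted p = 0.095).

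IFIT1 acts on the start of translation. Of 15 initiation factor genes tested, 4 rose at 8 h against control ODN and 0 fell, where 4.55% and 5.45% of all genes did. They were Eif4a1, the helicase of the cap-binding complex (1.34 ± 0.31), Eif4e, which binds the cap itself (0.99 ± 0.28), Eif3j1 (0.82 ± 0.20) and Eif3c (0.59 ± 0.18). The list's median was 0.28, against -0.12 over all genes tested. When arrays were left out in turn, 1 to 4 of the 15 were called, and Eif3j1 was the one called each time. At 4 h 0 of 15 were called by limma or at an unadjusted p below 0.05. Against medium at 8 h 3 of the 15 rose and 0 fell, where 5.66% and 6.11% of all genes did. These were Eif4a1 (1.86), Eif3c (1.05) and Eif3j1 (0.69), while Eif4e was not called. The Eif3j1 call against medium was lost without CpG ODN replicate 3 or medium replicate 1 or 3. The listed cap methylation genes, Cmtr1, Cmtr2 and Rnmt, had no value.

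Markers of the spleen's cell types moved with the CpG ODN group at 8 h as well, and in bulk samples fewer cells of a type and less RNA per cell cannot be told apart. Against control ODN 5.45% of all genes fell, and against medium 6.11%. Of 8 T cell markers 4 fell against control ODN (Cd5, Cd3e, Lat and Cd3g, list median -0.95), or 2 with quantile normalization and 2 to 4 when arrays were left out in turn. Against medium 1 fell, Cd3g (list median -0.53), or 0 to 2 when arrays were left out. The mean level over the list ranged from 1.65 to 2.15 with CpG ODN, against 2.34 to 3.07 with control ODN and 2.04 to 2.90 in medium. Of 7 B cell markers 2 fell (Cd37 and Cd79b, list median -0.68), or 1 to 2 when arrays were left out, with mean levels of 1.47 to 1.61 with CpG ODN, against 2.05 to 2.60 with control ODN and 0.90 to 2.33 in medium. Against medium 1 B cell marker fell, Cd79b, and the list's median was 0.0018. Of 7 monocyte and macrophage markers 2 fell against control ODN (median -0.79), Cd14 and Vcam1, or 1 with quantile normalization, and the same 2 fell against medium (median -0.70), where Vcam1 was lost without CpG ODN replicate 3 or medium replicate 1 or 2 (highest adjusted p = 0.099). Of 4 dendritic cell markers 1 rose against control ODN, where 4.55% of all genes did. It was Ly6d (1.36 ± 0.29), which is also found on B lineage cells, and the list's median was -0.11, against -0.12 over all genes. The mean level of the 4 ranged from 0.74 to 0.88 with CpG ODN, against 0.50 to 0.74 with control ODN and 0.36 to 0.82 in medium. None of 5 NK cell, 6 neutrophil or 3 erythroid markers was called by limma against control ODN, with 1, 1 and 0 at an unadjusted p below 0.05. Of 5 platelet markers Gp9 fell, a call lost without any 1 of the 6 arrays. With medium as the control, 1 neutrophil marker fell, S100a8 (-1.56, limma adjusted p = 0.002), also when arrays were left out in turn. No NK cell, erythroid or platelet marker was called there. The neutrophil list's median was -0.68 against control ODN and -0.65 against medium. Its mean level ranged from 0.70 to 2.26 with CpG ODN, against 1.68 to 2.75 with control ODN and 2.06 to 2.92 in medium. At 4 h no marker of these lists was called by limma against control ODN, with 1 at an unadjusted p below 0.05. The part of marker shifts in the differences of Ifit1 and Ifit3 at 4 h and 8 h was not tested.

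As a description of shared pattern, the group means of each gene were correlated with those of 2800 genes that have at least 2 measured arrays in every group and means that span at least 1 (log2). These 9 points share the common reference and the large 8 h response. The 5 genes most like Ifit1 were Spag16, Gpr31b, Car13, Wdr12 and Gem, with r of 0.991 to 0.985. Those most like Ifit3 were Ece2, Cxcl10, Tpst1, Ccnd2 and Znhit6, with r of 0.987 to 0.983. Ifit3 itself stood 60th in likeness to Ifit1, and Ifit1 87th in likeness to Ifit3 (r = 0.942). Over the 32 single arrays r between the 2 genes was 0.906. When likeness was measured over single arrays, Cxcl10, an interferon-inducible chemokine, came first for both genes (r = 0.954 with Ifit1 and 0.947 with Ifit3). The first 5 then shared 1 gene with the list above for Ifit1 and 2 for Ifit3.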

How the data were processed

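The deposited table gives 1 log ratio of Cy5 over Cy3 per probe and array, read here as log2. No source used here gives the authors' background correction, spot filter or normalization, and the RNA, dyes and reference are those of the labels' protocols. Of 16720 probes, 11303 had a value on at least 1 array and 5203 on all 33. The platform annotation, dated and possibly old, names 14656 probes with 1 gene symbol, 6 with several and 2058 with none, and 14361 Entrez identifiers were found in RefSeq (GRCm38.p6). For a gene with several probes the most completely measured one was used, which gave 9672 genes.

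Values were centred on the median of their array. A mean per group was fitted to each gene over all 9 groups, with missing values left out and variances moderated by limma 3.58.1 in R 4.3.3 (prior degrees of freedom 5.75). A gene entered a comparison with at least 2 measured arrays in each compared group, and Benjamini-Hochberg adjustment ran over all genes tested in it. The fit was tested on simulated data and checked against lmFit and eBayes on 4612 complete genes. Exact permutation tests used SciPy 1.17.1 in Python 3.11.15. All columns were assigned from titles. The members, gene lists and tests were chosen with earlier results of these data known. Beside Ifit1 and Ifit3, the rule for naming took the 5 genes most like each, 5 tested neighbours on each side, and up to 3 called members of each list by size of the 8 h difference, or the member with the smallest p; others named were chosen after their values were seen. Alternatives covered centring, normalization, weights, the fit, blocks, probes and left-out arrays.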

Additional observations from a re-analysis of the deposited data

Results flagged for a closer look

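The level of Ifit1 in medium 4 h replicate 2, 0.092, lay far from the other 3 arrays of its group (-0.45 to -0.36) relative to the group's range. It was 1 of 16 groups tested in this way, and chance alone marks about 1 in 20 such groups. Without it the 4 h difference of Ifit1 between CpG ODN and medium remained called.

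The difference between CpG ODN and control ODN changed between times by limma's test of that change. For Ifit1 it was larger by 1.69 at 4 h than at 2 h, a call lost with the repeat number across times as a block (1.66, adjusted p = 0.056) and in 7 of 16 fits without 1 array, by 2.72 at 8 h than at 4 h and by 4.41 at 8 h than at 2 h. For Ifit3 it was larger by 3.57 at 8 h than at 4 h and by 4.50 at 8 h than at 2 h.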

How the results depend on the processing

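Of 818 alternative values for 48 results, 760 kept their direction and their side of the threshold, those for both genes with CpG ODN at 8 h against either control among them. With quantile normalization Ifit1 at 2 h (CpG ODN minus control ODN) was -0.024 and Ifit3 at 4 h was 1.22, now called. With array weights Ifit3 at 4 h was 1.09 and called, Ifit3 at 2 h against medium was -0.027, Ifit1 in control ODN between 4 h and 2 h was 0.028, and in medium Ifit3 differed by -0.99 (4 h minus 2 h) and -0.84 (8 h minus 2 h), both called, and Ifit1 by 0.32 (8 h minus 2 h), not called. Over genes measured on all arrays Ifit3 at 4 h, at 1.18, was called. When the fit held the compared groups alone, the calls of Ifit3 against medium at 4 h (1.34) and of Ifit1 in medium between 8 h and 2 h (0.65) were lost, and without the 4 arrays of low experiment number that of Ifit3 (1.25) was lost.

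Leaving out 1 array at a time gave Ifit1 values of -0.077 to 0.14 (CpG ODN minus control ODN, 2 h), 1.57 to 1.78 (its change from 2 h to 4 h), -0.11 to 0.10, -0.19 to 0.29 and -0.17 to 0.31 (control ODN, 4 h minus 2 h, 8 h minus 2 h and 8 h minus 4 h) and 0.55 to 0.80 (medium, 8 h minus 2 h). For Ifit3 the ranges were -0.12 to 0.43 and 1.20 to 1.47 (CpG ODN minus medium, 2 h and 4 h), -0.38 to 0.17 and -0.58 to 0.12 (control ODN minus medium, 2 h and 8 h), and -1.04 to -0.49, -0.96 to -0.26 and -0.26 to 0.44 (medium, 4 h minus 2 h, 8 h minus 2 h and 8 h minus 4 h). Ifit1 minus Ifit3 at 2 h, CpG ODN minus medium, ranged from -0.19 to 0.29. The cause of these changes was not tested.

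Deviations of same-numbered arrays of a time correlated at -0.41 to 0.74. All pairs exceeded 0.1 in 1 of 9 pairings of groups, control ODN and medium at 8 h (0.48, 0.65 and 0.65). There the block gave -0.36 for Ifit1 and -0.24 for Ifit3, neither called (adjusted p = 0.813 and 0.950). In the other 8 pairings of groups at least 1 pair lay below 0.1, and the numbers were not taken to pair those samples. The replicate block within times changed no call. The block across times gave 1.66 for the Ifit1 change between 2 h and 4 h and 0.62 for Ifit1 in medium, both calls lost, and 0.018 for Ifit1 in control ODN between 4 h and 2 h. With 1 probe per gene, taking the mean of probes changed nothing.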
